A study of Rattus norvegicus with 6 samples.

Results

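The IGF axis was followed through 9 genes: the ligands Igf1 and Igf2, the growth hormone receptor Ghr, the binding proteins Igfbp1, Igfbp2, Igfbp3 and Igfbp4, the acid-labile subunit Igfals, and the growth hormone target Socs2. Members were chosen by gene symbol in the authors' deposited table, which gave 13 probes and 31 spots per array, out of 19958 genes, 30367 probes and 58717 spots. The samples were 6 pools of rat RNA, each on 1 one-colour array. FAO cells, a rat hepatoma line that keeps hepatocyte functions, had 24 h in 100 µM deferoxamine (DFO, an iron chelator) or in 0 µM with water only, and each pool held 3 cultures. Liver and kidney came from rats that ate an AIN-93G diet, a purified rodent diet, either free of iron or with iron, for 4 weeks, and each pool held 6 animals. The labels call these animals mice in places, although the organism given is rat. All FAO cultures had serum in their medium, which itself contains IGFs and their binding proteins. Because every group was 1 pool on 1 array, there was no spread between animals or cultures and no p-value was computed. In tissue RNA, fewer cells of a type and less RNA per cell cannot be told apart.

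Growth hormone from the pituitary acts through its receptor, JAK2 and STAT5 on the hepatocyte, which releases most of the circulating IGF1. In blood IGF1 travels mainly in a ternary complex with IGFBP3 and the acid-labile subunit, whereas IGFBP1 is a short-lived, mainly hepatic binding protein that insulin represses and that fasting, hypoxia and amino acid lack induce. SOCS2 is induced by growth hormone and feeds back on its receptor.

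The promoters of Igf1 and Igfbp1 are shown because these were the members that passed 2-fold in deferoxamine-treated cells. Each is the 250 bases before the RefSeq start on the GRCr8 assembly, plus strand, at chr7:24172282-24172531 for Igf1 and chr14:86261027-86261276 for Igfbp1. Capitals mark CAAAACA, the core of the insulin response element known from Igfbp1, to which FOXO factors bind.
Igf1: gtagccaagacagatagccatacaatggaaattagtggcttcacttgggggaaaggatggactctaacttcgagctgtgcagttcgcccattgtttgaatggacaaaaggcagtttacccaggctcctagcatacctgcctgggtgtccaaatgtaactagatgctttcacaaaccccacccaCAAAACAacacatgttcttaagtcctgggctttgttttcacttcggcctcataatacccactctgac
Igfbp1: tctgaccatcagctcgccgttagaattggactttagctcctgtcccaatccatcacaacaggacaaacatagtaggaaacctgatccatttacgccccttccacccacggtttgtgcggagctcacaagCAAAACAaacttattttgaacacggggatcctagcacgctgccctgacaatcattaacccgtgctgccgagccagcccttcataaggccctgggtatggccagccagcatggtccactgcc

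Promoters of 8 of the 9 members were in the RefSeq table. CAAAACA, searched on both strands, had 1 match in Igf1, starting 67 bases before the start, and 1 in Igfbp1, starting 121 bases before it. It had none in the other 6 promoters, and 5.46% of all 33469 promoters of this length held it. ACGTG, the core of the hypoxia response element, had 1 match in Igf2 and 2 in Igfbp2, which are the same 6 bases read on both strands, against 16.6% of all promoters. TTCNNNGAA, the site that STAT5 binds, had no match in any of the 8 promoters, against 7.67% of all promoters. A match is a stretch of letters in this window and was not linked to binding or to a difference.

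Signals are given as scaled signal, on which the 75th percentile of the probes detected on all arrays equals 1000 on each array. They can be compared between arrays for 1 probe, not between probes. A probe was measured on an array when all its spots were well above background. Differences are log2 of the treated or iron-free array over its control, ± the standard error from repeated spots, which holds no biological spread. A gene was called at 2-fold or more, log2 1, and where only 1 of the arrays was above background the difference is a bound. Counts of genes measured in a comparison, and the shares of all genes called, include bounds. A gene can therefore enter such a count through only 1 of the arrays. Between 37.7% and 48.8% of probes were well above background per array. Blocks of noisy spots made up 37 of 264 on the iron-sufficient liver array and 0 to 13 on the others. Of the members' spots 6 lay in such blocks, none of them on an FAO array. Scaling to the median of each array's own detected probes, in place of this percentile, would move all genes by 0.58 log2 in liver, 0.20 in kidney and 0.05 in FAO cells. The hepatocyte markers, albumin and transferrin among them, were all above background in FAO cells and in liver (9 of 9) and mostly not in kidney (3 of 9), while all 9 kidney tubule and podocyte markers were above background in kidney.

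**Figure D1:**
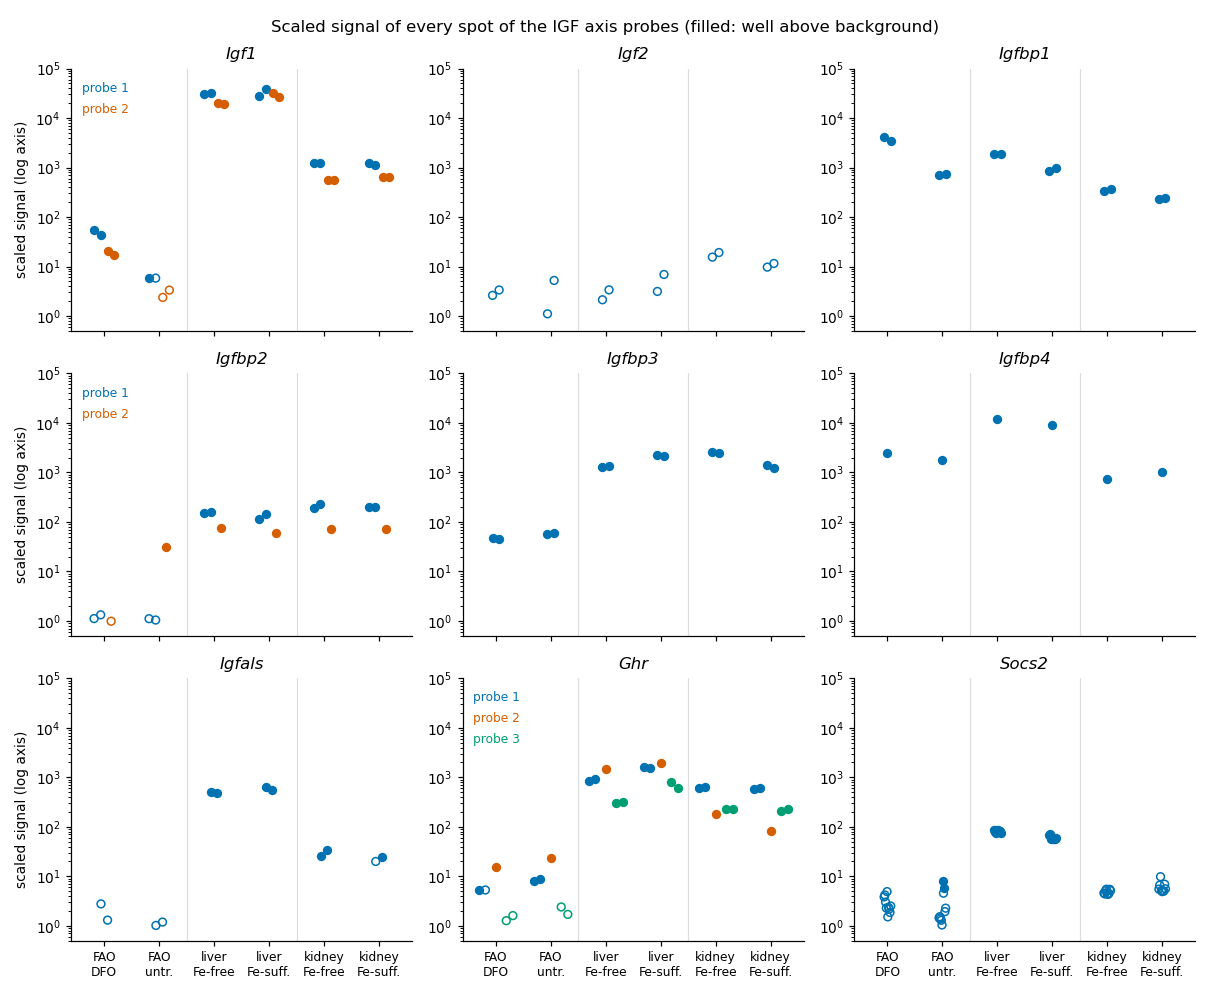
Scaled signal (log axis) of every spot of the 13 probes on the 6 arrays, leaving out 4 Socs2 spots flagged as outliers; filled points are well above background, open points are not, and colours separate probes of a gene. Igf1 is high in liver, intermediate in kidney and near background in FAO cells, Igf2 is open on all arrays, and Igfbp1, Igfbp3 and Igfbp4 are filled on all 6 arrays.

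Among the ligands, Igf1 was above background in deferoxamine-treated but not in untreated FAO cells, and its main probe differed little between diets in liver and kidney. Its brighter probe read 49.0 in deferoxamine-treated cells, against 5.86 in untreated cells, where 1 of 2 spots was above background. This was 8.37-fold higher with deferoxamine (log2 3.06), from the probe's own unmeasured signal in untreated cells, so it is not a lower limit. The spot standard errors of these levels were 0.50 log2 with deferoxamine and 1.04 without. The second probe read 18.8 with deferoxamine, against 2.81 in untreated cells, at least 3.76-fold higher. The difference by the brighter probe ran from 2.08 (log2, with normexp background correction) to 3.11 under 8 alternative ways of processing. Both probes gave the same direction, but the signal remained far under that of either tissue.

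In liver the brighter Igf1 probe read 31868 on the iron-free diet, against 32811 on the iron-sufficient diet, a log2 difference of -0.04 ± 0.27. The second probe read 19731 in iron-free liver and 29120 in iron-sufficient liver (-0.56 ± 0.27), and -0.40 without its spot in a noisy block. In kidney the brighter probe read 1253 on the iron-free diet and 1189 on the iron-sufficient diet (0.08 ± 0.25), and the second read 568 and 647 on the same diets (-0.19 ± 0.18). The probe for Igf1 that stood for the gene therefore lay within its spot error in both tissues, and the other was lower on the iron-free diet by more than its spot error, except that with normexp it gave 0.42 in liver and 0.13 in kidney, and with arrays scaled to their median detected probe 0.02 in liver and 0.01 in kidney. Igf2, the fetal growth factor that adult rat liver largely silences, was not well above background on any of the 6 arrays, with signals from 2.41 to 17.2, so no difference was measured.

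The receptor Ghr was lower in iron-free liver with all 3 of its probes, 1 of which turned to 0.16 with arrays scaled to the median of their own detected probes. The probe that stood for the gene read 889 in iron-free liver, against 1595 in iron-sufficient liver, 1.79-fold lower (-0.84 ± 0.25). The others read 1451 in iron-free and 1947 in iron-sufficient liver (-0.42 ± 0.38, 1 spot), and 304 in iron-free and 694 in iron-sufficient liver (-1.19 ± 0.28). That last difference was -0.96 without its spot in a noisy block. By its main probe Ghr was short of the 2-fold call, which it reached with normexp (-1.02), and 4.55% of the 10172 genes measured in liver had a lower difference.

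In kidney the Ghr probes disagreed. The probe that stood for the gene read 625 on the iron-free diet and 601 on the iron-sufficient diet (0.06 ± 0.18), and another read 230 and 223 on the same diets (0.05 ± 0.26). The probe with 1 spot read 179 in iron-free kidney, against 81.2 in iron-sufficient kidney (1.14 ± 0.44). In FAO cells Ghr was near background, at 5.32 with deferoxamine and 8.47 without for the main probe, 1.59-fold lower with deferoxamine (log2 -0.67). The spot standard errors of these levels were 0.90 log2 with deferoxamine and 0.83 without, each larger than the difference. The 1-spot probe read 15.6 with deferoxamine and 23.9 without (-0.62 ± 0.90), a difference within its spot error.

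Igfbp1 had the largest measured difference of the binding proteins in FAO cells and liver, by the probes that stand for genes, and it was higher in the iron-deprived member of all 3 pairs. It read 3790 in deferoxamine-treated FAO cells, against 712 in untreated cells, 5.32-fold higher (2.41 ± 0.16). It read 1864 in iron-free liver, against 917 in iron-sufficient liver, 2.03-fold higher (1.02 ± 0.25). In kidney it read 350 on the iron-free diet, against 240 on the iron-sufficient diet, 1.46-fold higher (0.55 ± 0.18).

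With 2 spots per array, the Igfbp1 spots of the 2 arrays did not overlap in any pair, the nearest being 336 in iron-free kidney and 248 in iron-sufficient kidney. The share of all probes without overlap was not computed, so this says little about Igfbp1. Over the 6 arrays the order was deferoxamine-treated FAO, iron-free liver, iron-sufficient liver, untreated FAO, iron-free kidney and iron-sufficient kidney. Untreated FAO cells and iron-sufficient liver were neighbours 1.29-fold apart (-0.37 ± 0.25), in an order that turned when arrays were scaled to the median of their own detected probes (0.21). The liver difference for Igfbp1 sat on the 2-fold line: it was at least 2-fold under 5 of these 8 alternatives, with a range of 0.70 to 1.60. The range was 2.39 to 2.52 in FAO cells and 0.47 to 0.75 in kidney. The settings on outliers, noisy blocks, background rule and probe mean use the same Igfbp1 spots and could move it only through scaling. Among the other alternatives, only scaling to the median of detected probes (1.60) kept it at 2-fold in liver. Hepatocyte markers in liver summed to 289000 on the iron-free diet and 233020 on the iron-sufficient diet, with 2 of 9 at least 2-fold higher (Apoa1 and Tf), 1 lower (Hnf4a) and a median of 0.07. Erythroid markers were at least 2-fold higher on the iron-free diet in 6 of 7 cases in liver and 2 of 7 in kidney. Of all genes, 6.52% were called higher and 3.01% lower in liver, and 3.11% and 1.26% in kidney. The part of either list in the Igfbp1 and Ghr differences was not tested.

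Igfbp3, the main carrier of circulating IGF1, differed in opposite directions in the tissues, although the difference between tissues was not tested. In liver it read 1313 on the iron-free diet, against 2226 on the iron-sufficient diet, 1.70-fold lower (-0.76 ± 0.27). In kidney it read 2534 on the iron-free diet, against 1332 on the iron-sufficient diet, 1.90-fold higher (0.93 ± 0.27). In FAO cells it read 46.7 with deferoxamine and 58.6 without (-0.33 ± 0.52), within its spot error.

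Igfbp3 is made in liver mostly by non-parenchymal cells, endothelial cells and Kupffer cells among them. Endothelial markers in liver summed to 2815 on the iron-free diet and 3313 on the iron-sufficient diet, with 2 of 6 measured markers at least 2-fold higher, none lower and a median of 0.38. Such sums weigh the brightest probes most. Kdr alone read 1769 on the iron-free and 2630 on the iron-sufficient diet. Cdh5 was also lower on the iron-free diet, while Pecam1, Vwf, Stab2 and Lyve1 were higher. Kupffer cell and leukocyte markers in liver summed to 7906 on the iron-free diet and 5837 on the iron-sufficient diet, with 2 of 8 higher, none lower and a median of 0.23. Stellate cell and fibroblast markers in kidney summed to 2145 on the iron-free diet and 990 on the iron-sufficient diet, with 2 of 7 higher, Col1a2 and Col3a1, and a median of 0.83. Endothelial markers in kidney summed to 2559 on the iron-free diet and 2337 on the iron-sufficient diet. Beside these counts, 6.52% of all genes were called higher and 3.01% lower in liver, and 3.11% and 1.26% in kidney. The part of these markers in the Igfbp3 differences was not tested.

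Igfbp2, a binding protein that adult liver makes at low levels and raises in fasting, differed little between diets. Its main probe read 153 in iron-free liver and 130 in iron-sufficient liver (0.24 ± 0.27), and 208 in iron-free kidney and 201 in iron-sufficient kidney (0.05 ± 0.28). The second probe, with 1 spot, gave 0.36 ± 0.46 in liver and 0.02 ± 0.48 in kidney. In FAO cells the probes disagreed: the main one was not above background on either array (1.22 with deferoxamine and 1.07 without), whereas the 1-spot probe read 0.985 with deferoxamine and 31.0 without, at least 6.55-fold lower. That value rests on 1 spot per array.

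Igfbp4, which mostly inhibits IGF action, was measured everywhere with 1 spot. It read 2495 in deferoxamine-treated and 1784 in untreated FAO cells (0.48 ± 0.21). It read 11818 in iron-free and 9096 in iron-sufficient liver (0.38 ± 0.38), and 725 in iron-free and 1035 in iron-sufficient kidney (-0.51 ± 0.35). None reached 2-fold, and the liver difference was about the size of its spot error and was -0.0025 with normexp.

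Igfals, the liver-made subunit that locks IGF1 and IGFBP3 into the ternary complex, read 492 in iron-free liver and 593 in iron-sufficient liver (-0.27 ± 0.27), a difference within its spot error. In kidney it read 29.7 on the iron-free diet and 22.3 on the iron-sufficient diet, where it was not above background, at least 1.21-fold higher. It was at background in FAO cells, at 1.90 with deferoxamine and 1.10 without. Socs2, with 10 spots per array, read 82.0 in iron-free liver and 60.6 in iron-sufficient liver, 1.35-fold higher (0.44 ± 0.15), with a range of 0.0054 (normexp) to 1.02 under the 8 alternatives, and was not above background in FAO cells or kidney.

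**Figure D2:**
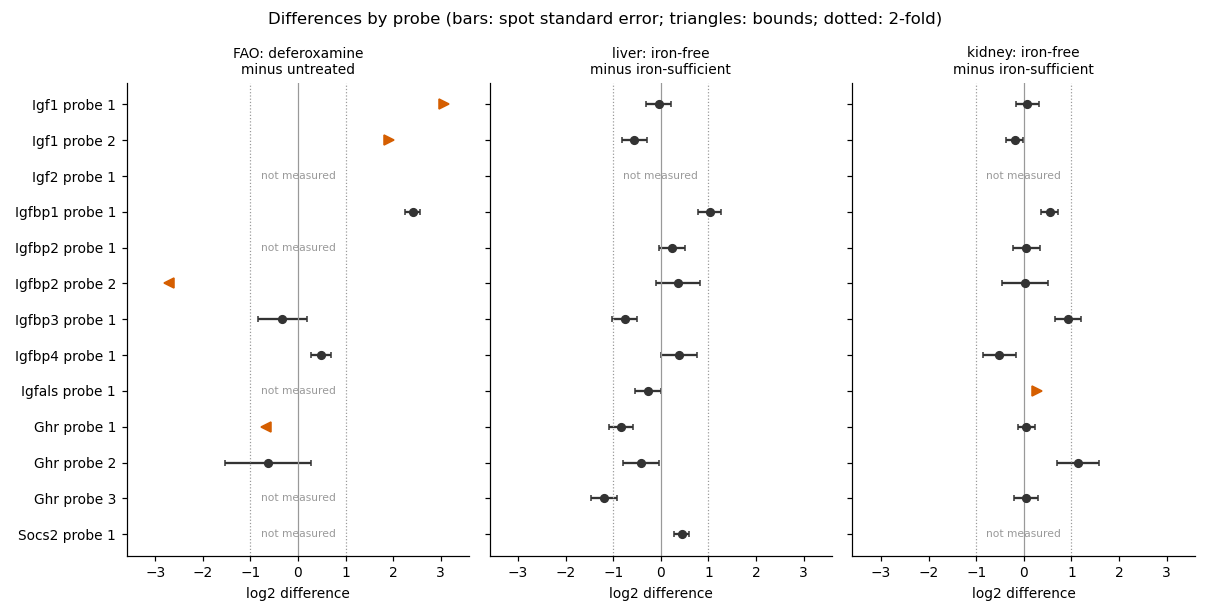
Log2 difference of each of the 13 probes in the 3 comparisons (deferoxamine minus untreated, iron-free minus iron-sufficient in liver and in kidney); points with bars are differences ± spot standard error, triangles are bounds, dotted lines mark 2-fold. Igfbp1 lies right of 0 in all panels, all 3 Ghr probes lie left of 0 in liver (1 of them turns to 0.16 under another scaling), and Igfbp3 lies left of 0 in liver and right of 0 in kidney.

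Set against all genes, the members called were 2 of 5 with a difference or bound in FAO cells (Igf1 and Igfbp1, both higher). There 4.05% of 10696 genes were called higher and 6.44% lower, bounds included. Igf1 entered this count only through the deferoxamine array and Ghr only through the untreated one, so the Igf1 call rests on an unmeasured control signal. In liver 1 of 8 members was called (Igfbp1, higher), where 6.52% of 10172 genes were called higher and 3.01% lower. In kidney 0 of 7 were called, where 3.11% of 8952 genes were called higher and 1.26% lower. The median over members, bounds included, was 0.48 in FAO cells, 0.10 in liver and 0.08 in kidney, beside 0.03, 0.02 and -0.03 over all genes in the same order. The liver count of 1 of 8 is therefore near the share of all genes, and Igfbp1 in FAO cells was higher than 99.35% of the genes measured there.

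**Figure D3:**
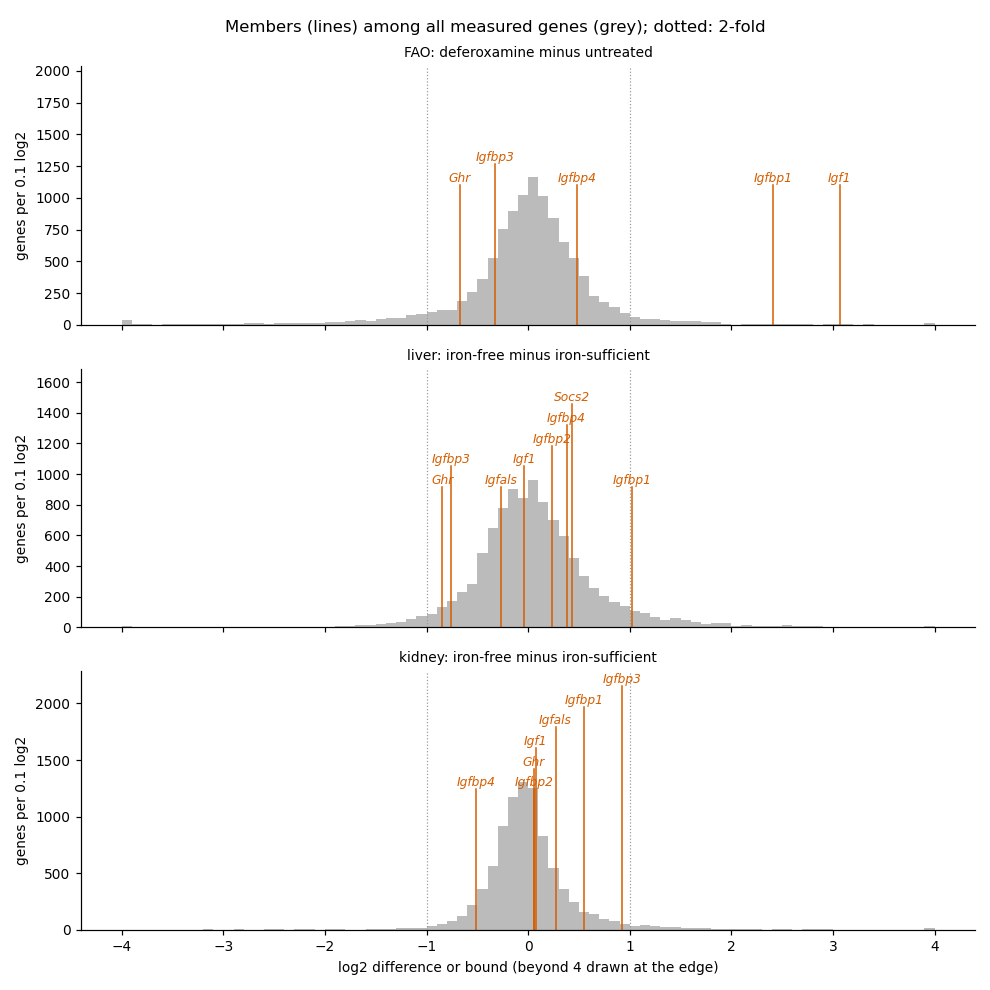
Number of genes per 0.1 log2 (grey) by log2 difference or bound in FAO cells, liver and kidney, with the measured members as lines of arbitrary height and 2-fold dotted. Igf1 and Igfbp1 stand in the far right tail in FAO cells, and in liver and kidney the members spread across the body of the distribution with Igfbp1 and Ghr nearest to the 2-fold line in liver and Igfbp3 in kidney.

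Differences between members on the same arrays do not depend on the single factor by which an array is scaled. In iron-free relative to iron-sufficient liver, Igfbp1 differed from Ghr by 1.87 ± 0.35 log2 (3.65-fold) and from Igfbp3 by 1.78 ± 0.36 (3.45-fold). Igfbp1 differed from Igf1 by 1.06 ± 0.36 there. In kidney Igfbp1 differed from Ghr by 0.49 ± 0.25 and from Igfbp3 by -0.38 ± 0.32. Igfbp1 and Igfbp3 thus changed unequally in liver, while in kidney both were higher on the iron-free diet. In FAO cells Igfbp1 differed from Igfbp4 by 1.93 ± 0.26 and from Igfbp3 by 2.74 ± 0.54.

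Between tissues on the iron-sufficient diet, 6 of 8 measured members were at least 2-fold higher in liver than in kidney and none was lower, where 14.9% of 9337 genes were called higher in liver and 26.6% lower. Igf1 was 27.6-fold higher in liver (4.79 ± 0.34) and Igfbp4 8.79-fold higher (3.14 ± 0.48). Igfbp1 was 3.83-fold higher. Ghr was 2.65-fold higher by its main probe, and its other probes gave 24.0-fold (1 spot) and 3.12-fold. Bounds put Igfals at least 24.0-fold and Socs2 at least 2.46-fold higher in liver. Igfbp3 (0.74 ± 0.34) and Igfbp2 (-0.63 ± 0.35) did not reach 2-fold, and Igfbp2 alone was lower in liver. Igfbp3 passed 2-fold, and the count became 7, with the 75th percentile of all probes (1.05), the authors' log2 values (1.05) and the median of detected probes (1.18).

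Untreated FAO cells held little of the axis relative to iron-sufficient liver. There 7 of 8 measured members were at least 2-fold lower, where 27.7% of 10595 genes were called higher and 27.8% lower. Igf1 was 5601-fold lower by its own unmeasured signal in untreated cells, which is not a lower limit. Ghr was 188-fold lower by its main probe, Igfals at least 118-fold lower and Igfbp3 38.0-fold lower. Igfbp4 was 5.10-fold lower. Igfbp2 was at least 25.9-fold lower by its main probe, but its 1-spot probe, measured on both arrays, was 1.89-fold lower (-0.92 ± 0.51), and with the mean of a gene's probes the count was 6. Igfbp1 was the exception, at 712 in untreated cells and 917 in liver. Hepatocyte markers moved with this: 8 of 9 were at least 2-fold lower in untreated FAO cells than in liver. Of markers with a difference or bound, so were 8 of 8 for Kupffer cells and leukocytes and 6 of 6 for stellate cells and fibroblasts. The counts were 6 of 6 for endothelial and 4 of 5 for erythroid markers, and 0 of 2 for kidney tubule and podocyte markers. The part of these markers in the result was not tested.

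The counts of the following lists stand beside the shares of all genes called higher and lower. These shares were 4.05% and 6.44% in FAO cells, 6.52% and 3.01% in liver, and 3.11% and 1.26% in kidney. Among IGF and insulin receptors and adaptors, 1 of 4 measured was called higher in FAO cells and none of 3 in liver or 4 in kidney. Igf1r, the IGF1 receptor, did not have all its spots above background on any array. Its highest signals were 27.1 in iron-free and 32.8 in iron-sufficient kidney. Insr, the insulin receptor, gave 0.12 ± 1.64 in FAO cells only, with 1 spot per array. Irs2, an adaptor that both receptors use, read 154 in deferoxamine-treated and 72.9 in untreated FAO cells (1.08 ± 0.27). Among 12 growth hormone signalling genes, the called ones were all higher and numbered 1 of 10 measured for FAO, 2 of 9 for liver and 0 of 8 for kidney.

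The kinase Jak2, which the growth hormone receptor activates, gave 0.37 ± 0.54 in FAO cells, 0.39 ± 0.60 in liver and -0.05 ± 0.74 in kidney. Stat5a read 101 in deferoxamine-treated and 192 in untreated FAO cells (-0.92 ± 0.18), 169 in iron-free and 120 in iron-sufficient liver (0.50 ± 0.12), and 264 in iron-free and 228 in iron-sufficient kidney (0.21 ± 0.08). Stat5b gave -0.05 ± 0.64 in FAO cells. The feedback inhibitor Cish had 2 probes of 1 spot that disagreed in liver, one reading 73.2 on the iron-free and 33.9 on the iron-sufficient diet (1.11 ± 0.62) and the other 79.4 and 81.6 (-0.04 ± 0.41). Its FAO difference of 1.13 ± 1.38 was within its spot error. Prlr, the prolactin receptor, was 2.38-fold higher in iron-free liver, at 39.7 on the iron-free and 16.7 on the iron-sufficient diet. On the latter array it was not measured, so this is not a lower limit.

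Of the growth hormone responsive liver genes, 2 of 11 measured in liver were higher, Cish and Prlr, which the signalling list also holds, and 1 was lower. The lower one, Onecut1, a hepatic transcription factor that growth hormone induces, read 488 in iron-free and 1000 in iron-sufficient liver (-1.03 ± 0.25). Their median was -0.18 in liver. In FAO cells 1 of 6 was higher, Cish, and 2 were lower: Cyp3a18 read 54.8 with deferoxamine and 189 without (-1.78 ± 0.24), and Cyp2c13 was at least 2.13-fold lower. Both are steroid-metabolising cytochromes of male rat liver. In iron-free relative to iron-sufficient liver Cyp3a18 gave 0.01 and Cyp2c13 0.05. The other cytochromes of the list were not called there either. Cyp2c11 gave -0.68 ± 0.27, Cyp2c7 -0.49 and Cyp2a2 -0.28, while Cyp2c12 gave 0.99 ± 0.29. In kidney none of 5 was called.

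Among the other binding proteins and their partners, Igfbp7, a low-affinity relative, was 2.17-fold higher in iron-free liver. It read 50.5 on the iron-free and 23.3 on the iron-sufficient diet, where it was not measured, so this is not a lower limit. Of the 4 genes of this list with a difference or bound there, Igfbp7 was the only one called. Only Igfbp6 was measured on both liver arrays (0.50 ± 0.31), and the other values were bounds. Stc1, whose protein inhibits the IGFBP-cleaving protease PAPP-A, read 60.9 in deferoxamine-treated and 19.9 in untreated FAO cells (1.62 ± 0.63), 1 of 3 measured there. None of 5 was called in kidney, although the second probe of Igf2bp2, named after its values were seen, read 212 on the iron-free and 102 on the iron-sufficient diet (1.05 ± 0.25), against a bound of 0.69 by its main probe.

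Genes that insulin or fasting controls did not move one way. In FAO cells 2 of 5 were higher, Irs2 and Trib3, an inhibitor of AKT, which read 225 with deferoxamine and 86.5 without (1.38 ± 0.29). In liver 0 of 7 were higher and 1 was lower, Fgf21, a fasting hormone, at 28.5 on the iron-free and 103 on the iron-sufficient diet (-1.86 ± 0.20). The list median was 0.85 in FAO cells, -0.48 in liver and -0.27 in kidney.

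Of the transcription factors known to act on Igfbp1, 2 of 10 were higher with deferoxamine in FAO cells and 1 of 10 on the iron-free diet in liver, while 1 of 5 was lower in kidney. Atf3, a stress-induced factor, read 1419 in deferoxamine-treated and 24.5 in untreated FAO cells (5.86 ± 0.40), and 161 in iron-free and 43.1 in iron-sufficient liver (1.90 ± 0.43). In kidney it read 41.4 on the iron-free and 94.4 on the iron-sufficient diet (-1.19 ± 0.41). Cebpb read 2373 in deferoxamine-treated and 818 in untreated FAO cells (1.54 ± 0.16), and gave -0.44 ± 0.27 in liver. Foxo1 had no probe under that symbol. The part of these factors in the Igfbp1 differences was not tested.

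**Figure D4:**
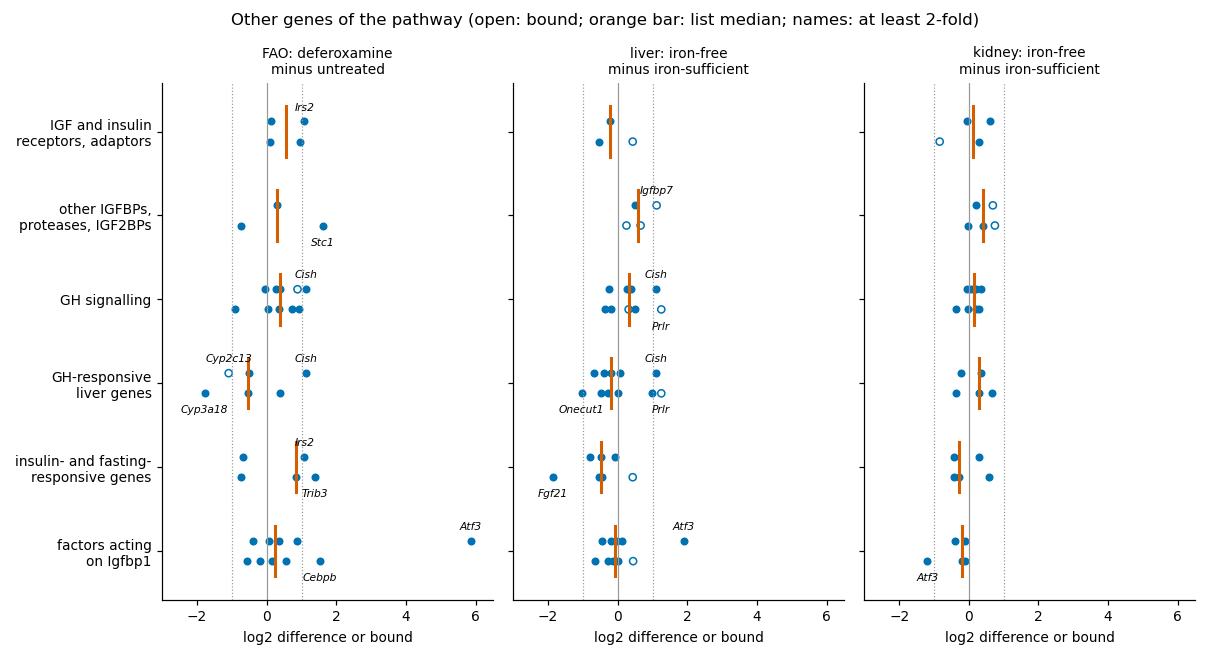
Log2 difference or bound of the other genes of the pathway by list in the 3 comparisons; filled points are measured differences, open points bounds, orange bars list medians, dotted lines 2-fold, and names mark genes called. Atf3 stands far right in FAO cells, right in liver and left in kidney, and most other genes lie within the 2-fold lines.

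The genes most like a member over the 6 arrays were found by the root mean square difference of centred log2 signals among 8727 other genes. For Igfbp1 they were Bbc3 (0.42), Egr1 (0.44) and Ero1a (0.44). Bbc3, the nearest, gave 1.49 in FAO cells, 0.32 in liver and 0.64 in kidney. Egr1 gave 2.97, 1.64 and -0.18 in the same order, and Ero1a gave 1.84, 1.43 and 0.78. For Ghr they were Ptgs1 (0.33), Gphn (0.33) and Apom (0.35), for Igfbp2 Rnf128 (0.10), Cav1 (0.11) and Tmsb10 (0.13), and for Igf1 Akr1c2 (0.79), Afm (0.91) and Enpp2 (0.93). A gene needed signal above background on only 4 of the 6 arrays to be compared. Igfbp2, Rnf128, Cav1, Ptgs1, Gphn, Akr1c2, Afm and Enpp2 lay at about 1 to 2 in FAO cells, at background, so the order and distances for Igfbp2, Ghr and Igf1 rest in part on unmeasured values.

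Under the 8 alternatives, 13 of 20 member differences in the treatment comparisons kept their sign. In liver Igf1 ran from -0.30 to 0.54, Igfals from -0.49 to 0.31, Ghr from -1.02 to -0.26 and Igfbp3 from -0.82 to -0.18. Igfbp3 in kidney ran from 0.92 to 1.13.

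**Figure D5:**
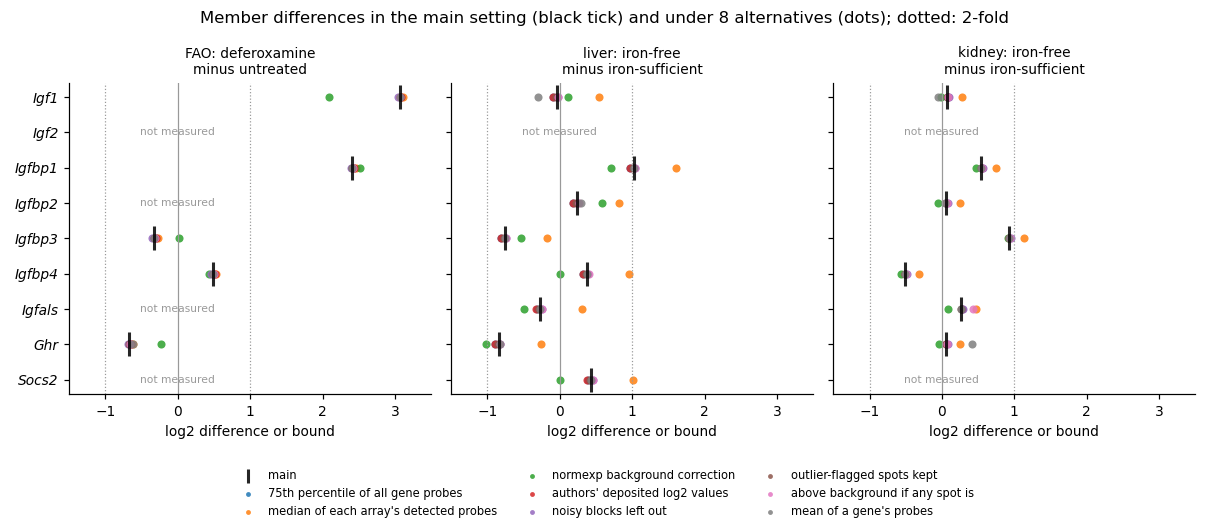
Log2 difference or bound of each member in the 3 comparisons as reported (black tick) and under 8 alternative ways of processing (coloured dots), with 2-fold dotted. In FAO cells Igf1 and Igfbp1 stay right of 2-fold under all 8, and in liver the whole column of members shifts right when arrays are scaled to the median of their own detected probes.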

How the data were processed

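RNA of 6 pools was measured on 6 one-colour arrays that share 1 slide. Groups were read from the sample titles. Per the file headers, the authors extracted intensity values with Agilent Feature Extraction 10.7.3.1. The array design was 028279, and its header gives rn4. The deposited intensity used is the background-subtracted processed signal. The authors' deposited log2 value per probe equals log2 of their intensity minus each array's 75th percentile, as checked against the scanner files, and served as an alternative. Its column medians ran from -4.19 to -3.28, and each column matched its own array best. There were 0 columns of other samples.

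Spots flagged as outliers were left out (680 to 1215 per array) and no gene spot was saturated. The log2 intensity was averaged over the spots of a probe and scaled so that the 75th percentile over 9091 probes, those detected on every array, was equal between arrays. For a bound, the dim side was taken as the probe's own signal or, if that was lower, the weakest signal detected on that array. With the probe's own signal the value is the plain difference and not a lower limit. Spot errors were pooled in 20 bins of signal. For the 3837 genes with several probes, the probe brightest on average stands for the gene. Of 19958 gene IDs, 19142 were in the RefSeq table of GRCr8, used for symbols. Number of arrays and signal over background limit the precision, and bounds and probes near background carry the largest errors.

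Named are all members with every probe, pathway genes called in a treatment comparison, and Igf1r, Insr, Jak2, Stat5a, Stat5b and Cish in any case, plus the 3 genes most like each of 4 members. Markers named beside them and values of other genes were chosen after they were seen. Members and lists were chosen with earlier results of these data known. The steps were tested on simulated data. The 8 alternatives were 2 other scalings, normexp with offset 50 (on the median spot signal, since the files hold no mean), the authors' log2 values, noisy blocks of 16 by 16 spots left out, outliers kept, a looser background rule and the mean of a gene's probes. Tools were Python 3.11.15, numpy 2.4.6, pandas 2.3.3, limma 3.58.1 and R 4.3.3.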

Additional observations from a re-analysis of the deposited data

Results flagged for a closer look

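With 1 array per group, 5 members had diet differences of opposite sign in liver and kidney, and the difference between tissues was not tested in any of them. The log2 difference in liver minus that in kidney was -1.69 for Igfbp3, with a spot standard error of 0.38. It was -0.90 for Ghr (spot standard error 0.31), where the other probes gave -1.57 and -1.24. It was 0.89 for Igfbp4 (0.51, 1 spot per array) and -0.12 for Igf1 (0.36), the last smaller than its spot error. The second Igf1 probe was lower on the iron-free diet in both tissues (-0.56 in liver and -0.19 in kidney) and so showed no opposite sign. For Igfals the value was -0.54 or lower, from -0.27 in liver and a bound of 0.27 in kidney, and its liver difference lay within spot error. The Ghr and Igf1 differences in kidney were 0.06 and 0.08, so their opposite signs rest on values within spot error of 0.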

How the results depend on the processing

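The FAO count of members called was 2 under all 8 alternatives. The liver count of 1 was 0 with the 75th percentile of all probes (Igfbp1 0.97) and 0 with the authors' log2 values, and 2 with the median of each array's detected probes (Igfbp1 1.60, Socs2 1.02). That last scaling moved all genes by 0.58 in liver and 0.20 in kidney, where the member count of 0 became 1 (Igfbp3 1.13), and it gave 2120 genes called higher and 78 lower in liver, against 663 and 306. Under it Ghr in liver was -0.26, its 1-spot probe 0.16, Igf1 0.54 and Igfals 0.31. With normexp the liver count stayed at 1, but the gene was Ghr, lower (-1.02), with Igfbp1 at 0.70, and 367 genes were called higher and 174 lower there, and 187 and 71 in kidney, against 278 and 113. The looser background rule called 870 genes higher and 1299 lower in FAO cells, 1116 and 513 in liver, and 635 and 436 in kidney, and leaving out noisy blocks called 429 and 401 in FAO cells. The scalings also moved the liver-over-kidney split, to 2166 higher and 1835 lower with the median of detected probes, to 1882 higher and 2001 lower with all probes, and to 1887 higher and 1999 lower with the authors' values. The split of untreated FAO cells over liver became 4545 higher and 2230 lower with the median of detected probes, and 1662 higher and 3224 lower with normexp. Of 20 member differences 13 kept their sign under all 8 alternatives and 7 did not: Igfbp3 in FAO cells, Igf1, Igfbp4 and Igfals in liver, and Igf1, Igfbp2 and Ghr in kidney. The cause was not tested.

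No paired analysis was possible because each group had 1 array. For the same reason no array was left out. Spot errors cover the array only, and Igf2, and Igfals and Socs2 in FAO cells, lay under background.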
